A study of Mus musculus with 8 samples.

Results

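Elastic fibres were followed here through 10 genes, chosen by symbol from the 50578 genes of the count table: elastin (Eln), the fibrillins Fbn1 and Fbn2, the fibulins Fbln1, Fbln2, Fbln5 and Efemp2 (fibulin-4), and the microfibril-associated proteins Mfap2, Mfap4 and Mfap5. The genes were picked by symbol, with earlier results of these data known, and each symbol matched 1 gene of the table. RNA-seq was read from wild-type (WT) mouse embryonic fibroblasts (MEFs), the mixed connective tissue cells that grow out of a minced embryo, in 4 groups of 2 libraries. The untreated group is labelled Control. The other groups received 1 compound each at 10 µM: carbidopa, which inhibits aromatic L-amino acid decarboxylase; LY-364747 (LY below), which the study's methods write LY-364947 and which under that name inhibits the type I TGF-β receptor kinase; or CHIR-99021 (CHIR below), which inhibits the kinase GSK3. All cells, the untreated ones included, were early-passage MEFs grown in DMEM with serum and antibiotics. The MEFs came from mid-gestation C57BL/6J embryos from which head, tail, limbs and internal organs had been removed. For these RNA-seq libraries the sources do not state the length of treatment (the methods give one for the qRT-PCR samples) or a vehicle for the untreated cells, and they do not say whether the libraries of a group came from separate cultures, so that p-values measure the spread between these libraries, which may be technical.

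Elastic fibres let skin, lung and arteries recoil. Secreted tropoelastin, the product of Eln, is laid onto a scaffold of fibrillin microfibrils and is crosslinked there by lysyl oxidases, while fibulins bring the enzyme, the elastin and the microfibril together. Fibrillin microfibrils also hold the latent form of TGF-β in the matrix, and TGF-β is known to raise elastin expression in fibroblasts. Microfibrils form without elastin as well, so the scaffold genes and Eln need not change together.

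The libraries held between 15039566 and 20504338 counts, and 15154 genes passed the filter on low counts, all 10 elastic fibre genes among them. Together they made up 0.517% and 0.505% of an untreated library, against 0.127% and 0.151% under carbidopa, 0.156% and 0.168% under LY and 0.222% and 0.209% under CHIR. The treated cells carry the cell type label mouse hepatic-like cells, but 8 of 10 hepatocyte markers, Ttr and Serpina1a among them, had 3 reads or fewer in every library and the other two, Alb and Hnf4a, had at most 10. The 10 hepatocyte markers summed to 4 and 5 reads in untreated cells, against 11 to 22 reads in treated cells. All 10 fibroblast markers were detected in every library, with a summed level of 15938 and 16176 CPM (counts in a library scaled to the usual common total) in MEFs and of 5957 to 8150 CPM in treated cells. With each compound 8 of the 10 were called lower by edgeR at an adjusted p under 0.05, against 17.2% to 20.1% of all genes tested. Pdgfra was called higher with each compound. Dcn was not called under carbidopa and LY, nor Pdgfrb under CHIR. In bulk libraries such as these, fewer cells of one type and less RNA per cell cannot be told apart.

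Every one of the 10 genes was lower in each treated library than in both MEF libraries, but the share of all genes for which this held was not computed. Fbn2 under LY met it with a log2 fold change of only -0.09 and was not called. Under carbidopa, 10 of 10 fell by edgeR's quasi-likelihood test at an adjusted p under 0.05, and none rose; of all genes tested, 19.7% were called lower and 18.0% higher. Under LY, 9 of 10 fell and none rose, against 17.2% lower and 13.7% higher over all genes. Under CHIR, 9 of 10 fell and none rose, against 20.1% lower and 18.7% higher over all genes. Over the 10 genes the median log2 fold change stood at -2.04 under carbidopa, -1.79 under LY and -1.81 under CHIR, whereas the median over all 15154 genes was 0.04, 0.03 and 0.04. The sum over the 10 genes was 5765 ± 30.5 CPM in MEFs (SD, n = 2), 1321 ± 179 CPM under carbidopa, 1562 ± 58.7 CPM under LY and 2095 ± 72.1 CPM under CHIR. The 3 comparisons share the same MEF libraries, so they do not count as separate evidence of a fall. With libraries scaled to total counts alone, Fbn2 and Efemp2 lost their call under carbidopa, Efemp2 lost it under LY, and Fbn2 under LY changed sign to 0.14.

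**Figure D1:**
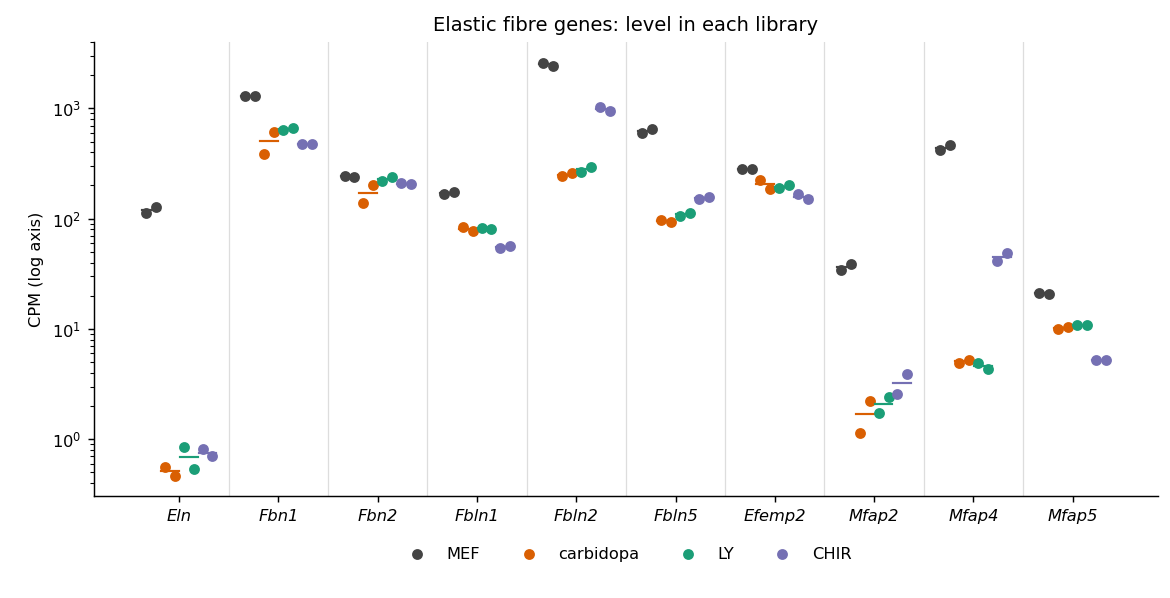
Level of each elastic fibre gene in each library, in CPM on a log axis; each point is 1 library and each bar the mean of the 2 libraries of a group (MEF, carbidopa, LY, CHIR). The treated points of Eln lie between 0.467 and 0.842 CPM, against 114 and 128 CPM in the MEF libraries, while those of Fbn2 and Efemp2 stay close to the MEF points.

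Elastin itself showed the largest fall of the 10 genes with each compound. Eln (ENSMUSG00000029675) lies on chr5:134702593-134747323, minus strand, in the mm10 assembly. MEFs gave 1529 and 1983 Eln reads, against 12 and 10 under carbidopa, 15 and 10 under LY, and 14 and 12 under CHIR. In CPM these were 114 and 128 in MEFs, 0.565 and 0.467 under carbidopa, 0.842 and 0.533 under LY, and 0.806 and 0.696 under CHIR. All 6 treated libraries were therefore far below both MEF libraries, and the 3 treated groups lay close to each other. The log2 fold change against MEFs was -7.85 ± 0.19 (SE) under carbidopa, a level 231-fold lower, with an adjusted p of 2.42e-09 by edgeR's quasi-likelihood test. It was -7.45 ± 0.19 under LY (175-fold lower) and -7.32 ± 0.19 under CHIR (159-fold lower). Each SE is the size of the log2 fold change divided by the square root of the test's F statistic. For Eln it is too small, because the counting intervals given below are wider than 95% intervals built from it. Ordered from the most negative log2 fold change, Eln was number 9 of 15154 genes under carbidopa, number 13 under LY and number 23 under CHIR. Pooled over the 2 libraries of a group, the exact 95% Poisson interval of the Eln level ran from 0.323 to 0.780 CPM under carbidopa, from 0.442 to 1.01 CPM under LY and from 0.491 to 1.10 CPM under CHIR. These intervals cover counting error only, and all 3 overlap.

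The fibrillins, large glycoproteins that polymerise into the microfibril, changed far less than elastin. Fbn1 (ENSMUSG00000027204, chr2:125300594-125507993, minus strand) encodes the main fibrillin of postnatal tissue. It stood at 1304 and 1308 CPM in the MEF libraries, 389.7 and 616 under carbidopa, 638 and 659 under LY, and 477 and 475 under CHIR. Every treated library was below both MEF libraries, and the carbidopa libraries differed more from each other than the libraries of any other group. Fbn1 fell by 1.38 under carbidopa, 1.01 under LY and 1.46 under CHIR on the log2 scale, with adjusted p-values of 0.000158, 0.00126 and 0.000102 by edgeR's quasi-likelihood test. Fbn2 (ENSMUSG00000024598, chr18:58008623-58210487, minus strand) encodes the fibrillin most used in embryonic tissue. Its levels were 244 and 239.8 CPM in MEFs, 138 and 200.2 under carbidopa, 219 and 237 under LY, and 212 and 205 under CHIR. The groups did not overlap, but the LY library nearest to the MEFs was within 3 CPM of the lower of them. The log2 fold change of Fbn2 was -0.51 under carbidopa, which passed at an adjusted p of 0.0219 in edgeR. Under LY it was -0.09 (95% interval -0.42 to 0.25, adjusted p = 0.711 in edgeR) and under CHIR -0.22 (-0.55 to 0.12, adjusted p = 0.282), and neither was called. The carbidopa value of Fbn2 was -0.27 without carbidopa replicate 1 and -0.80 without carbidopa replicate 2, and its call was lost without either MEF library (adjusted p = 0.106 and 0.0991 in edgeR) and with only the 2 groups compared (0.0695). By contrast, Fbn2 under CHIR was called without either carbidopa library (adjusted p = 0.0212 and 0.0219 in edgeR) and with only the 2 groups compared (0.0142).

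The fibulins differed among themselves, from a level 10.1-fold lower for Fbln2 to one 1.38-fold lower for Efemp2, both under carbidopa. Fbln2 (ENSMUSG00000064080, chr6:91212455-91272540, plus strand) encodes a fibulin of developing vessels and basement membranes that binds fibrillin and elastin. It was the most abundant of the 10 genes in MEFs, at 2609 and 2435 CPM, against 242 and 258 under carbidopa, 267 and 296 under LY, and 1034 and 941 under CHIR. The CHIR libraries thus lay between the MEFs and the other treated libraries. The log2 fold change was -3.34 ± 0.11 under carbidopa, -3.16 ± 0.11 under LY and -1.35 ± 0.11 under CHIR, where each ± is an SE.

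Fbln5 (ENSMUSG00000021186, chr12:101746565-101819055, minus strand) encodes the fibulin that links elastin to integrins and guides elastin onto microfibrils. It stood at 594 and 649 CPM in MEFs, 98.3 and 93.3 under carbidopa, 107 and 112 under LY, and 152 and 158 under CHIR. All treated libraries were well below the MEFs, under CHIR the least reduced. Fbln5 fell by 2.70, 2.51 and 2.01 on the log2 scale under carbidopa, LY and CHIR. Fbln1 (ENSMUSG00000006369, chr15:85205949-85286535, plus strand), whose product is found in the elastin core and in basement membranes, had 169 and 173 CPM in MEFs. It had 84.9 and 77.7 CPM under carbidopa, 82.9 and 80.1 under LY, and 54.5 and 57.1 under CHIR. Here CHIR gave the lowest libraries. The log2 fold change of Fbln1 was -1.07 under carbidopa and under LY, and -1.61 under CHIR. Efemp2 (ENSMUSG00000024909, chr19:5473954-5482517, plus strand) encodes fibulin-4, which tethers lysyl oxidase to tropoelastin and without which elastic fibres do not form. Its levels were 281 and 285 CPM in MEFs, 225 and 184 under carbidopa, 188 and 201 under LY, and 166 and 149.5 under CHIR. No treated library reached the MEF libraries, but the gap was small beside that of Fbln2. Efemp2 fell by 0.47, 0.54 and 0.84 on the log2 scale, with adjusted p-values of 0.0106, 0.00522 and 0.000290 by edgeR's quasi-likelihood test. The carbidopa call was lost without either MEF library (0.0630 and 0.0697 in edgeR), and the LY call without LY replicate 1 (0.0560).

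The microfibril-associated proteins coat or bridge the fibrillin scaffold. Mfap4 (ENSMUSG00000042436, chr11:61485431-61488900, plus strand) encodes a fibrinogen-related protein that binds elastin and fibrillin. It had 416 and 466 CPM in MEFs, 4.94 and 5.22 under carbidopa, 4.94 and 4.31 under LY, and 41.1 and 48.6 under CHIR. The carbidopa and LY libraries lay together far below the CHIR libraries, which in turn lay far below the MEFs. The log2 fold change of Mfap4 was -6.44 ± 0.15 under carbidopa (86.6-fold lower), -6.57 ± 0.15 under LY (95.3-fold lower) and -3.30 ± 0.12 under CHIR (9.83-fold lower), where each ± is an SE.

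Mfap2 (ENSMUSG00000060572, chr4:141010418-141015984, plus strand) encodes MAGP-1, a small glycoprotein built into fibrillin microfibrils. Its reads were 460 and 596 in MEFs, 24 and 48 under carbidopa, 31 and 45 under LY, and 45 and 67 under CHIR. These counts correspond to 34.2 and 38.5 CPM in MEFs and to between 1.13 and 3.89 CPM in the 6 treated libraries. The log2 fold change of Mfap2 was -4.42, -4.13 and -3.49. Mfap5 (ENSMUSG00000030116, chr6:122505845-122529290, plus strand) encodes its relative MAGP-2. It was the least abundant gene of the set in MEFs when length is allowed for, with 21.2 and 20.8 CPM in MEFs, 9.93 and 10.4 under carbidopa, 10.8 and 10.9 under LY, and 5.18 and 5.22 under CHIR. The CHIR libraries were lowest. Mfap5 fell by 1.04, 0.95 and 2.01 on the log2 scale under carbidopa, LY and CHIR.

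**Figure D2:**
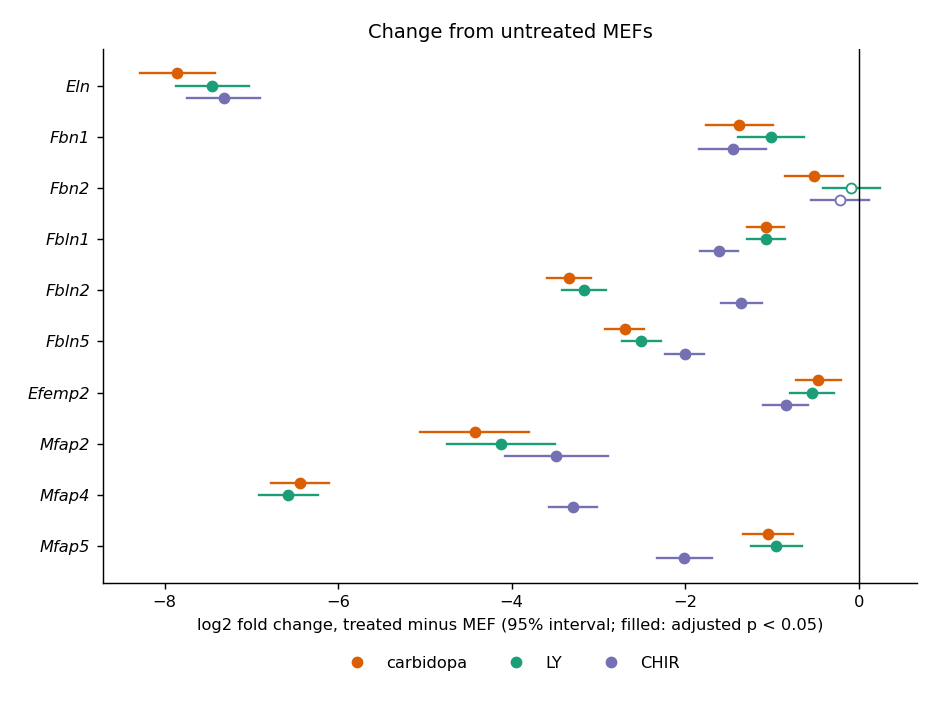
Log2 fold change of each elastic fibre gene against untreated MEFs under carbidopa, LY and CHIR; points are estimates, lines 95% intervals, and filled points passed an adjusted p under 0.05 in edgeR. Eln sits between -7.85 and -7.32 with all 3 compounds, Mfap4 and Fbln2 sit closer to 0 under CHIR than with the other compounds, and the open points are Fbn2 under LY and under CHIR. The lines of Eln are narrower than counting error allows.

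Promoter sequence is shown for 3 members that stand for the range of falls among genes found in the RefSeq promoter table (GRCm38.p6), which held 6 of the 10. Each line gives the bases just upstream of a RefSeq start on the gene's own strand, 5′ to 3′: Fbln5 and Mfap2 from the genes with larger falls, and Efemp2 from those with small ones. Bases inside the annotated gene were left out, so the Mfap2 line has 244 bases and ends just before the annotated start, short of the RefSeq start. Capitals mark matches on either strand to CAGAC, the core bound by SMAD proteins that act below TGF-β receptors, or to GGGCGG, the GC box.
Fbln5, chr12:101819120-101819369, minus strand: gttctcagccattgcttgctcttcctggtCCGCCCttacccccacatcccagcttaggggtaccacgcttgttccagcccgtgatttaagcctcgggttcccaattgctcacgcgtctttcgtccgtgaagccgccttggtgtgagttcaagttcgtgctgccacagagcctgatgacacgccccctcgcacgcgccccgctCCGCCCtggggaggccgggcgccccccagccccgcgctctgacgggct
Mfap2, chr4:141010174-141010417, plus strand: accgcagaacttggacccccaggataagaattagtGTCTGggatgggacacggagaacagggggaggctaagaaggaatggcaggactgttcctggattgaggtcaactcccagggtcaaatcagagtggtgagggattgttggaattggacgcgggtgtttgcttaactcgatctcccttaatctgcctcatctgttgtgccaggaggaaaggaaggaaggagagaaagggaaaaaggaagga
Efemp2, chr19:5473696-5473945, plus strand: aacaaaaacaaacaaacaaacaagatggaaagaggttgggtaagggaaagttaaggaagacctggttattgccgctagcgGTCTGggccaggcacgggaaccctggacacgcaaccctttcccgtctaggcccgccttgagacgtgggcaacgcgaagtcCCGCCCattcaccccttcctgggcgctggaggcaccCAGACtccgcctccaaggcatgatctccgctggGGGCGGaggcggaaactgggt
Fbln5 had 0 matches to CAGAC and 2 to GGGCGG. Mfap2 had 1 to CAGAC and 0 to GGGCGG, and Efemp2 had 2 to each. No match overlapped another. Neither TATAAA, the TATA box, nor TGANTCA, the AP-1 site, matched in any of the 3 windows. Of 32851 promoter windows of the same kind, up to 250 bases long, 42.2% held CAGAC, 32.7% GGGCGG, 12.4% TATAAA and 6.75% TGANTCA on either strand. A match is a string of letters and not a bound site.

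The compounds were then compared with each other. Mfap4, Fbln2 and Fbln5 were higher, and Mfap5 and Fbln1 lower, under CHIR than under either of the other compounds. Against LY, 3 of 10 genes were called higher and 2 lower under CHIR, where 6.45% and 7.69% of all genes were. Mfap4 differed by 3.28 (95% interval 2.96 to 3.60), Fbln2 by 1.81 (1.57 to 2.05) and Fbln5 by 0.50 (0.28 to 0.72) on the log2 scale, with adjusted p-values of 2.24e-06, 8.18e-06 and 0.00774 by edgeR's quasi-likelihood test. Mfap5 was lower by a log2 difference of -1.06 (-1.38 to -0.74) and Fbln1 by one of -0.55 (-0.76 to -0.33), with adjusted p-values of 0.00106 and 0.00479 in edgeR. The call of Fbln5 was lost without either CHIR library or either LY library (adjusted p of 0.0559, 0.0579, 0.118 and 0.0504 in edgeR), and that of Fbln1 without CHIR replicate 1 or LY replicate 1 (0.0756 and 0.0651). The other 5 genes were not called by edgeR. For Eln the libraries overlapped and the difference was 0.14 (-0.60 to 0.87). Fbn1 and Efemp2 were lower under CHIR in both libraries, by log2 differences of -0.44 and -0.30, at adjusted p-values of 0.116 and 0.118 in edgeR. Both were called without either carbidopa library and with only the 2 groups compared (0.00157 for Fbn1 and 0.0188 for Efemp2 in edgeR), and Fbn1 also by DESeq2 (adjusted p = 0.0457) and without a filter on low counts (0.00309).

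Against carbidopa, CHIR again had 3 of 10 genes called higher and 2 called lower, where 6.62% and 8.08% of all genes were. Both comparisons share the CHIR libraries. The log2 difference was 3.14 (95% interval 2.83 to 3.45) for Mfap4, 1.98 (1.74 to 2.22) for Fbln2 and 0.69 (0.47 to 0.91) for Fbln5, with adjusted p-values of 1.31e-06, 4.26e-06 and 0.00132 by edgeR's quasi-likelihood test. It was -0.97 (-1.28 to -0.65) for Mfap5 and -0.54 (-0.76 to -0.33) for Fbln1, with adjusted p-values of 0.00176 and 0.00477 in edgeR. The Fbln1 call was lost with only the 2 groups compared (adjusted p = 0.0542 in edgeR). It was also lost without CHIR replicate 1, where the log2 difference was -0.51. Mfap2, higher in both CHIR libraries by 0.94, and Efemp2, lower in both by a log2 difference of -0.38, missed the threshold at 0.0818 and 0.0566 in edgeR. DESeq2 called both, at adjusted p-values of 0.0330 for Mfap2 and 0.0257 for Efemp2, as did edgeR without a filter (0.00409 and 0.0260). Efemp2 was also called by edgeR with RLE size factors (adjusted p = 0.0481), with total counts (0.0467) and with at least 10 counts in every library (0.0440), and Mfap2 with the replicate block (0.0324). For Eln the difference was 0.54 (-0.22 to 1.29), and for Fbn1 it was -0.08 (-0.46 to 0.30). Fbn1 was decided by 1 library: it was higher under CHIR by 0.29 without carbidopa replicate 2 and lower, by a log2 difference of -0.37, without carbidopa replicate 1, and edgeR called both (adjusted p = 0.0115 and 0.00484). Without carbidopa replicate 2, Fbn2 and Mfap2 were called higher under CHIR as well, which made 6 of 10.

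**Figure D3:**
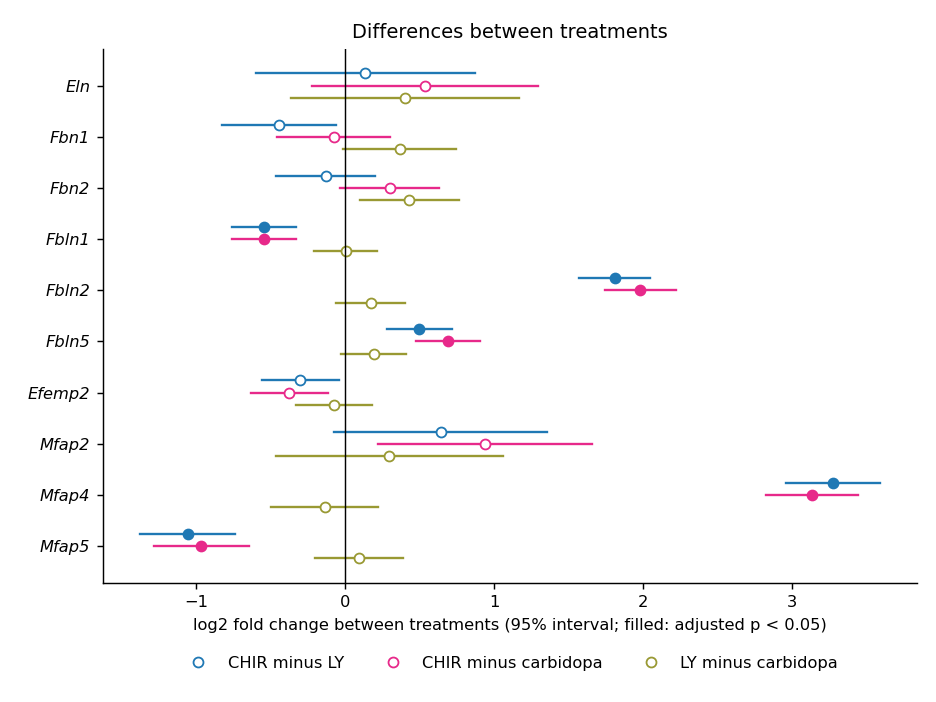
Log2 differences between the treatments for each elastic fibre gene (CHIR minus LY, CHIR minus carbidopa, LY minus carbidopa); points are estimates, lines 95% intervals, and filled points passed an adjusted p under 0.05 in edgeR. Mfap4 lies above 3 and Fbln2 near 2 in both CHIR comparisons, Mfap5 lies near -1, and every LY minus carbidopa point is open.

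LY and carbidopa gave levels that the test did not separate for any of the 10 genes. edgeR called 0 higher and 0 lower, where 0.0132% and 0% of all genes were called. At an unadjusted p under 0.05 edgeR counted 1 gene, Fbn2, and DESeq2 counted 2 without calling any after adjustment. Fbn2 was higher under LY in both libraries by 0.43 (95% interval 0.10 to 0.76), at an adjusted p of 0.519 in edgeR. For the genes with the largest falls the interval of the difference was -0.36 to 1.17 for Eln, -0.50 to 0.22 for Mfap4 and -0.06 to 0.41 for Fbln2 on the log2 scale. Fbn1 was higher under LY by 0.37 (-0.01 to 0.75). The fibrillin values depended on which carbidopa library was used. Without carbidopa replicate 1 the differences were 0.073 for Fbn1 and 0.19 for Fbn2, and neither was called; without carbidopa replicate 2, Fbn1 and Fbn2 were called higher under LY by 0.73 and 0.72, at adjusted p-values of 0.000184 and 0.000408 in edgeR.

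Counted per length, the makeup of the set changed with treatment. Levels per length are given in RPKM, CPM divided by the gene's merged exon length in kilobases. In MEFs the order was Fbln2 at 396 ± 19.4 RPKM (SD, n = 2), Mfap4 at 229 ± 18.3, Fbn1 at 108 ± 0.263, Fbln5 at 89.9 ± 5.70, Efemp2 at 74.6 ± 0.673, Fbln1 at 39.1 ± 0.665, Mfap2 at 30.0 ± 2.48, Fbn2 at 18.3 ± 0.230, Eln at 14.9 ± 1.24 and Mfap5 at 5.85 ± 0.0821. No neighbours in this order overlapped between libraries. Fbln2 and Mfap4 together were the leading transcripts of untreated cells, at 39.4% and 22.8% of the summed RPKM of the 10 genes. Under carbidopa Efemp2 led at 54.1 ± 7.63 RPKM, but its libraries overlapped those of Fbn1 at 41.5 ± 13.2 RPKM, which in turn overlapped those of Fbln2 at 39.2 ± 1.74 RPKM. Under LY, Fbn1 at 53.5 ± 1.18 RPKM and Efemp2 at 51.4 ± 2.32 RPKM overlapped at the top. Under CHIR, Fbln2 still led at 155 ± 10.3 RPKM and made up 49.3% of the sum, ahead of Efemp2 at 41.7 ± 3.12 RPKM and Fbn1 at 39.3 ± 0.125 RPKM, while Mfap4 at 23.3 ± 2.77 RPKM and Fbln5 at 22.4 ± 0.616 RPKM overlapped.

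The share of Efemp2 in the summed RPKM was 7.42% in MEFs, 28.9% under carbidopa, 24.7% under LY and 13.3% under CHIR. That of Mfap4 was 22.8% in MEFs, 1.41% under carbidopa, 1.16% under LY and 7.42% under CHIR. Eln was the lowest of the 10 genes in every treated group, at 0.0637 ± 0.00859 RPKM under carbidopa, 0.0849 ± 0.0270 RPKM under LY and 0.0928 ± 0.00958 RPKM under CHIR. The summed RPKM was 1006 in MEFs, 187 under carbidopa, 208 under LY and 315 under CHIR. With the longest transcript in place of merged exons, 6 of the 10 ranks in MEFs were the same; Eln then ranked 8 in place of 9, and Fbln5 and Efemp2 changed places, as did Eln and Fbn2. By that length Fbn1 ranked 3 under LY, at 54.2 RPKM behind Efemp2 at 73.9 RPKM and Fbln2 at 58.8 RPKM, and also 3 under carbidopa, behind Efemp2 and Fbln2. Under CHIR, Mfap4 and Fbln5 changed places.

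**Figure D4:**
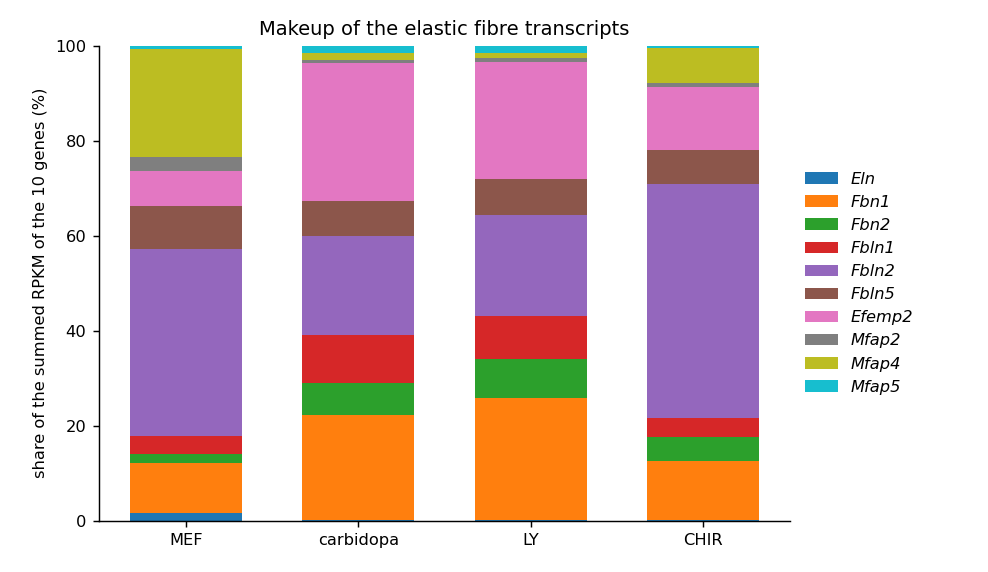
Makeup of the elastic fibre transcripts in each group, as the share of each gene (percent) in the summed mean RPKM of the 10 genes; each stacked bar is 1 group of 2 libraries and adds up to all of the sum. Mfap4 narrows from 22.8% in MEFs to 1.41% under carbidopa and 1.16% under LY, and Fbln2 takes 49.3% under CHIR.

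Genes that make, modify or degrade elastic fibres did not move in one direction. Of 39 such genes in 7 lists, 33 were tested, and of these 11 rose and 15 fell under carbidopa, 10 rose and 14 fell under LY, and 8 rose and 16 fell under CHIR. Over all genes, 18.0% were called higher and 19.7% lower under carbidopa, 13.7% and 17.2% under LY, and 18.7% and 20.1% under CHIR. The same shares over all genes belong beside the counts of each list in the paragraphs below. Their median log2 fold change was -0.32 under carbidopa, -0.26 under LY and -0.41 under CHIR. Adamts19 and Adamtsl2 had a group at 0 reads. Setting them to the bound that 3 reads a library allow could not move the median, because both stayed on the same side of it. Against LY, CHIR had 6 of the 33 genes higher and 10 lower, where 6.45% and 7.69% of all genes were. Against carbidopa it had 11 higher and 13 lower, where 6.62% and 8.08% of all genes were.

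Among the lysyl oxidases, which crosslink elastin and collagen, 2 of 5 rose, 2 fell and Loxl1 did not pass in any comparison with MEFs. Lox was at 5674 and 5847 CPM in MEFs, 808 and 909 under carbidopa, 1085 and 1005 under LY, and 1906 and 2073 under CHIR, all treated libraries being below the MEFs. Its log2 fold change was -2.75, -2.46 and -1.53, and it was higher under CHIR than under LY by 0.93. Loxl3 fell by 1.40, 1.40 and 0.84 on the log2 scale. Loxl4 rose by 2.09, 2.48 and 2.51, from 15.5 and 14.4 CPM in MEFs to between 59.9 and 93.0 CPM in the treated libraries. Loxl1, the family member tied to elastic fibre upkeep, had 276 and 249 CPM in MEFs and 222 to 274 CPM in treated libraries.

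The latent TGF-β binding proteins, which attach to fibrillin, split evenly: 2 of 4 rose and 2 fell with each compound. Ltbp2, at 282 and 245 CPM in MEFs, had 28.3 and 33.2 under carbidopa, 35.1 and 41.6 under LY, and 170.4 and 146 under CHIR. It fell by 3.10, 2.78 and 0.74 on the log2 scale and was higher under CHIR than under LY by 2.04. Ltbp4, which helps fibulin-5 onto microfibrils, fell by 1.98, 1.78 and 1.22. Ltbp3 rose by 0.52, 0.58 and 0.88. Among the other fibulins and hemicentins, Efemp1 (fibulin-3) rose from 544 and 566 CPM in MEFs to 1444 and 1385 under carbidopa, 1422 and 1361 under LY, and 833 and 947 under CHIR. The log2 fold changes of Efemp1 were 1.35, 1.33 and 0.68. Hmcn1 fell under all 3 compounds, from 75.6 and 80.9 CPM in MEFs to between 3.62 and 8.73 CPM, and Fbln7, at under 3 CPM in all libraries, passed the threshold under carbidopa (-1.58; the values were -0.56 for LY and 0.23 for CHIR).

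Emilins, glycoproteins at the border of elastin and microfibril, had 2 of 5 genes tested: Emilin1 rose under CHIR (0.96), with 0.40 and 0.42 for carbidopa and LY short of the threshold, and Emilin2 rose under carbidopa (1.36) and LY (1.07), with 0.32 for CHIR. Of the 9 tested ADAMTS and ADAMTS-like genes, enzymes and relatives that bind microfibrils, 5 fell and 2 rose under carbidopa and under LY, and 6 fell and 1 rose under CHIR. Adamtsl3 had 458 and 607 reads in MEFs and between 0 and 9 in the treated libraries. Adamts10 fell by 1.95, 1.61 and 0.83 on the log2 scale and Adamtsl5 by 0.78, 0.80 and 1.25 under carbidopa, LY and CHIR.

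Among proteases that can cut elastin, 4 of 6 tested fell and 1 rose with each compound. Mmp9, a gelatinase, had 13 and 11 reads in MEFs, 451 and 453 under carbidopa, 286 and 301 under LY, and 40 and 24 under CHIR. It rose by 4.66, 4.26 and 1.15 on the log2 scale. Ctss, a lysosomal protease, fell in all 3 comparisons (-3.19, -3.63 and -4.11), as did Mmp12, macrophage elastase (-1.15, -1.53 and -2.64). Both are made by macrophages, and 12 macrophage markers summed to 435 and 455 CPM in MEFs, 168 and 180.1 CPM under carbidopa, 131 and 138 CPM under LY and 41.2 and 43.5 CPM under CHIR; their part in the fall of Ctss and Mmp12 was not tested. In the elastin receptor complex, Neu1 rose under carbidopa (0.66) and LY (0.44), Ctsa under carbidopa (0.32), and Glb1 fell under CHIR (-0.41).

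**Figure D5:**
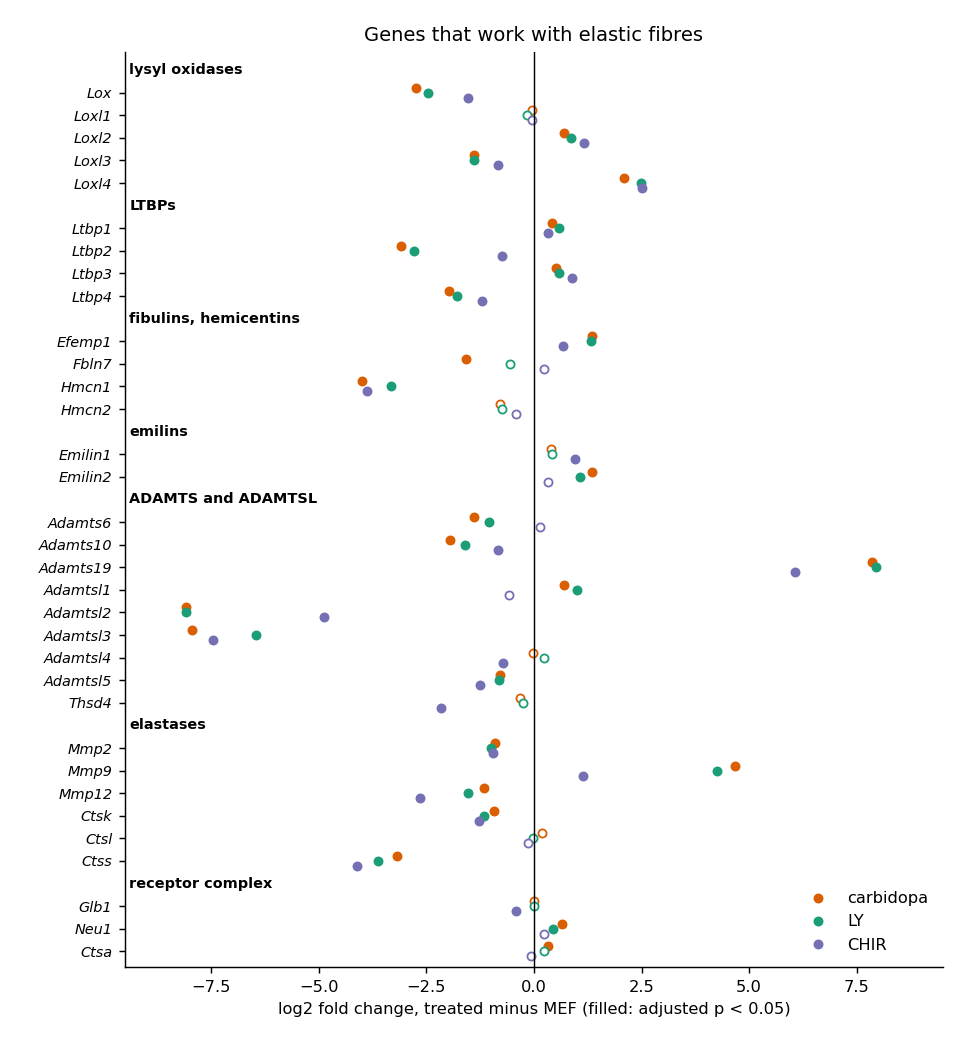
Log2 fold change against MEFs of the 33 tested genes that work with elastic fibres, grouped by role; each point is 1 gene with 1 compound, and filled points passed an adjusted p under 0.05 in edgeR. Genes lie on both sides of 0 in most groups; Adamts19, with 0 reads in both MEF libraries, and Adamtsl2, with 0 reads under carbidopa and LY, have fitted values that are not bounds.

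Smooth muscle cells are a main source of elastin in arteries, and cultured fibroblasts express several of the same contractile genes. Of 8 smooth muscle markers 7 were tested. All 7 fell under carbidopa and under LY, and under CHIR 6 fell and 1 rose. Over all genes, 19.7%, 17.2% and 20.1% were called lower under carbidopa, LY and CHIR, and 18.7% were called higher under CHIR. Their summed level was 3168 and 2905 CPM in MEFs, 452 and 371 CPM under carbidopa, 338 and 370.3 CPM under LY and 821 and 705 CPM under CHIR. Between treatments 5 of the 7 were higher under CHIR than under LY and 5 higher than under carbidopa, where 6.45% and 6.62% of all genes were. Acta2, the most abundant of them in MEFs, was not called in either (0.14 and 0.33). Of the elastic fibre genes, Mfap4, Fbln2 and Fbln5 were called higher under CHIR in both comparisons, Mfap5 and Fbln1 lower, and Eln was not called. The part of smooth muscle cells in the elastic fibre results was not tested. Myocd, which drives the contractile genes, had at most 10 reads in any library. Endothelial markers summed to 24.1 and 26.6 CPM in MEFs and to 13.1 to 18.4 CPM in treated libraries, and chondrocyte markers to 21.2 and 23.8 CPM against 11.3 to 17.6 CPM. The chondrocyte sum was mostly Sox9, whose log2 fold change was -1.13, -1.07 and -0.63 under carbidopa, LY and CHIR. The other tested chondrocyte markers, at few reads, went up. Col11a2 rose by 1.93, 1.68 and 2.43. Hapln1 rose by 3.24 under carbidopa, with 2.83 for LY and 2.90 for CHIR short of the threshold. Epithelial markers summed to 3.29 and 4.24 CPM in MEFs and 9.82 to 21.6 CPM in treated libraries. Krt19 made up most of each epithelial sum, and only 3 of the 8 epithelial markers were tested. All 3 were called higher under CHIR: Krt19 by 1.36, Krt18 by 2.37 and Cldn4 by 3.70. Krt18 and Cldn4 stayed under 3 CPM in every library. Under carbidopa and LY only Krt19 was called, higher by 2.48 and 1.77. Over all genes, 18.0%, 13.7% and 18.7% were called higher under carbidopa, LY and CHIR. Epcam and Cdh1 had at most 6 reads in any library.

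The genes most like Eln were sought among 9833 tested genes with a mean of at least 10 CPM in some group, by the distance between their 3 log2 fold changes against MEFs and those of Eln. Nearest was Fst, follistatin, which binds activins, at a distance of 0.83 log2 units, with 1015 and 1414 reads in MEFs and 7 to 16 in the treated libraries. Next came Adamtsl3 at 1.01, the chemokine gene Ccl11 at 1.37, the cell adhesion gene Chl1 at 1.59 and the Fc receptor-like gene Fcrls at 1.83. Ccl11 had 198 and 264 reads in MEFs and at most 4 in a treated library, and Fcrls had 326 and 360 reads in MEFs and at most 2 under LY or CHIR. Adamtsl3 had 0 reads in carbidopa replicate 1, and Chl1 had at most 4 under LY or CHIR. With so few reads, and with Eln itself at 10 to 15 reads in each treated library, the fitted values and distances of all 5 genes are loose. The other elastic fibre genes were not among these 5.

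Shared sequence was small for most of the set. Of the 10 genes, 5 overlap a gene on the opposite strand in the annotation, and with no statement that counting used strand, reads there cannot be assigned. For Fbn1 the overlap with Gm9913 covers 20.1% of exon bases, and Gm9913 had 0 to 17 reads against 8191 to 20279 for Fbn1. For Eln it covers 3.30%, and the partner, Gm30003, had 0 reads in all libraries. For Efemp2 (with Mus81) and Mfap4 (with Mapk7) it covers 4.57% and 4.63%, and for Fbn2 (with Gm26507) 0.976%. Mapk7 had between 415 and 584 reads in every library, while Mfap4 ran from 81 to 7222. Apart from these overlaps no gene of the set shared a stretch of 75 bases with another gene's transcripts.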

How the data were processed

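RNA-seq counts per gene were taken from the table the authors deposited, 1 column for each of the 8 libraries; 0 columns lacked a sample. The study's methods name paired-end sequencing, STAR (2.4.2a) on mm10 and featureCounts; annotation and strand setting are not given in the sources used here. The labels name a SMARTER library kit and the methods NEBNext Ultra. Gene positions are from GENCODE M21, which held 99.56% of the 50578 identifiers. Counts were scaled by TMM, filtered by filterByExpr (15154 genes kept) and tested with edgeR 4.0.16 (quasi-likelihood, limma 3.58.1, R 4.3.3) on all 8 libraries, with group as the only term, for 6 comparisons. Benjamini-Hochberg adjustment ran over all genes tested, with a threshold of 0.05. The coefficient of biological variation was 11%. TMM factors were 0.880 to 0.895 for MEFs and 1.03 to 1.06 for treated libraries. Replicate libraries differed beyond sampling noise (chi-square over degrees of freedom from 4.31 to 34.6), so none was counted as a duplicate.

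The 10 genes and all lists were chosen with earlier results of these data known. Named partner genes are up to 3 tested per list with the smallest p against MEFs; Loxl1, Myocd, Adamts19 and Adamtsl2 were named after their values were seen. The 5 genes nearest Eln were taken by distance. Alternatives were DESeq2 1.42.0, RLE and total-count scaling, 2 other filters, only the groups compared, a replicate block, each library left out, and another gene length. The edgeR script was tested on simulated data. Intervals of single levels cover counting error only.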

Additional observations from a re-analysis of the deposited data

How the results depend on the processing

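Each of 60 log2 fold changes (10 genes, 6 comparisons) was recomputed under 15 alternatives. Leaving out 1 library kept direction and call in 450 of 480 values, lost the call in 12, gained it in 12 and changed sign in 6. The other settings kept both in 399 of 420, lost the call in 5, gained it in 13 and changed sign in 3. Falls of Eln, Mfap4, Mfap2, Fbln2, Fbln5, Fbn1, Fbln1 and Mfap5 against MEFs kept their call in all 15.

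Genes called lower with CHIR than with LY numbered 4 with only the 2 groups compared and 1 to 4 when 1 library was left out; than with carbidopa, 1 and 1 to 3. Genes called higher with CHIR than with carbidopa numbered 3 to 6 when 1 library was left out, and with LY than with carbidopa 0 to 2; both highest values came without carbidopa replicate 2.

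Total counts in place of TMM moved the median over all genes to 0.29, 0.25 and 0.26 with carbidopa, LY and CHIR against MEFs. Higher and lower calls then numbered 5542 and 1956, 4232 and 1814, and 5115 and 2217, in place of 2732 and 2985, 2081 and 2613, and 2835 and 3043. There Fbn2 with LY against MEFs became 0.14, and Fbln1 with LY against carbidopa -0.022; without a filter the latter was -0.013. Sign also turned when 1 library was left out, with lowest and highest values of -0.16 and 0.48 for Eln with CHIR against LY (LY replicate 2), -0.37 and 0.29 for Fbn1 with CHIR against carbidopa (carbidopa replicate 2) and, with LY against carbidopa, of -0.061 and 0.067 for Fbln1 (carbidopa replicate 2, LY replicate 1), -0.21 and 0.077 for Efemp2 and -0.11 and 0.87 for Mfap2 (carbidopa replicate 1). The cause was not tested.

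Over all genes, calls between LY and carbidopa were 2 higher and 0 lower; they were 12 and 4 by DESeq2, 201 and 128 without a filter, and 1953 and 1863 without carbidopa replicate 2. With only the 2 groups compared, CHIR against LY gave 1810 and 1863 in place of 978 and 1165, and CHIR against carbidopa 402 and 625 in place of 1003 and 1224. Leaving out 1 library at a time, calls over all genes in either direction ran from 3142 to 7996 (5717 with all libraries) for carbidopa, 2841 to 6519 (4694 with all libraries) for LY and 3433 to 7800 (5878 with all libraries) for CHIR against MEFs, from 663 to 4228 (2143 with all libraries) for CHIR against LY and from 715 to 4632 (2227 with all libraries) for CHIR against carbidopa.

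Same-numbered libraries did not deviate together (correlations across genes of -0.16 to 0.13), so the numbers were not taken as pairs. With the replicate block, 10, 9 and 9 genes were lower than in MEFs, CHIR had 3 higher and 2 lower than LY and 4 higher and 2 lower than carbidopa (Mfap2 added), and LY against carbidopa had 0. Depth limits Eln in treated libraries, at 10 to 15 reads each.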
